A study of Mus musculus with 6 samples.

Results

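Scx, Mkx and Tnmd, a trio of tendon lineage genes, were followed in satellite cells from lncMREF knockout (KO) and wild-type (WT) mice. Satellite cells are the stem cells that rebuild muscle fibres, and lncMREF is a long noncoding RNA that the series links to muscle differentiation. The 3 genes were picked by name out of 21666 genes in the deposited count matrix, and they were picked in part because Scx differed between the genotypes in the opposite direction to Mkx and Tnmd. Their differences between KO and WT therefore chose them and are given below as a description, with no test. The data are RNA-seq counts from 3 libraries of lncMREF KO cells and 3 libraries of WT cells, all taken after 2 days in differentiation. The labels name no other allele or agent, and they do not give how the knockout was made or what separates one replicate from another (animal, culture or library). The p-values given for other genes thus rest on a library-to-library spread that can be technical.

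Tendon cells descend from progenitors marked by Scx (scleraxis), a transcription factor of the basic helix-loop-helix (bHLH) class that pairs with E proteins and binds E-box sequences. In mice Scx is needed for force-transmitting tendons and activates Tnmd in tendon cells. Mkx (Mohawk) is a homeodomain factor of the TALE class, acts as a transcriptional repressor in several assays, and is needed in mice for full tendon collagen fibrils. Tnmd (tenomodulin) is a membrane glycoprotein of differentiated tendon cells with a chondromodulin-like end, and it is also made by some adipose cells. In tendon progenitors TGF-beta and FGF signals act upstream of Scx.

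The libraries held 17919826 to 23646805 counts in KO and 20193337 to 28430678 in WT. Genes of mitochondrial DNA took 2.07% to 2.3% of counts in KO and 3.97% to 4.18% in WT. Muscle identity was present in all libraries: Myod1, the myogenic determination factor, stood between 91.3 and 97.8 CPM (counts scaled to library size) in KO and between 291 and 311 CPM in WT, and Pax7, the satellite cell factor, between 14.2 and 15.7 CPM in KO and between 9.55 and 11 CPM in WT. The targeted RNA was not matched to a gene identifier, and the knockout itself was not verified here. Transcripts of both sex chromosomes were found in every library, with Xist at 417 to 478 CPM in KO and 152 to 155 CPM in WT and Ddx3y at 33.9 to 37.5 CPM in KO and 57 to 66.1 CPM in WT. Over 15518 tested genes, 66.7% passed an adjusted p of 0.05 by edgeR's quasi-likelihood test, 33.7% with KO higher and 33% with KO lower. With library size only, without the TMM factors that offset differences in composition, 46.6% were called higher and 23.9% lower.

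Scx (ENSMUSG00000034161) lies on chromosome 15, 76457452 to 76459458, plus strand of mm10. It was the most abundant of the trio in every library. Its level was 45, 46.9 and 47 CPM in KO replicates 1 to 3, and 140, 144 and 138 CPM in WT replicates 1 to 3, from 891 to 1177 counts per KO library and 2733 to 3708 per WT library. All KO libraries lay below all WT libraries, and the values within a genotype were close to each other. The mean was 46.3 ± 1.09 CPM in KO and 141 ± 2.87 CPM in WT (SD, n = 3 each). Its log2 fold change was -1.60 (SE 0.05), a level 3.04-fold lower in KO. Of all tested genes, 4.69% had a lower log2 fold change. Its KO mean was above the KO mean of 70.5% of tested genes, and its WT mean was above that of 90.3%.

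Mkx (ENSMUSG00000061013) lies on chromosome 18, 6934518 to 7004780, minus strand. Its level was 17.1, 20.4 and 18.2 CPM in KO replicates 1 to 3, and 12.2, 11 and 10.3 CPM in WT replicates 1 to 3. The lowest KO library was above the highest WT library, with counts of 346 to 512 in KO and 208 to 275 in WT. The mean was 18.6 ± 1.66 CPM in KO and 11.1 ± 0.955 CPM in WT (SD, n = 3 each). The log2 fold change was 0.75 (SE 0.09), or 1.68-fold higher in KO. Of all tested genes, 87.1% had a lower log2 fold change, so the Mkx difference was a moderate member of the upper range. Its level was near the middle of all tested genes, above 48.9% of them in KO and above 40% in WT.

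Tnmd (ENSMUSG00000031250) lies on chromosome X, 133850980 to 133865577, plus strand. It was the least abundant of the trio by counts, with 126, 128 and 84 counts in KO replicates 1 to 3, and 13, 13 and 15 counts in WT replicates 1 to 3. These gave 5.71, 5.1 and 4.43 CPM in KO and 0.579, 0.684 and 0.56 CPM in WT. Every KO library was above every WT library by a wide margin, although the WT level rested on few reads. The mean was 5.08 ± 0.64 CPM in KO and 0.608 ± 0.0672 CPM in WT (SD, n = 3 each). This was a log2 fold change of 3.07 (SE 0.23), or 8.39-fold higher in KO. It had the 47th highest log2 fold change of all tested genes, and 99.7% had a lower one. Its level was above 28.7% of tested genes in KO and above 6.52% in WT. Of 522 genes tested on chromosome X, Tnmd included, 172 were called higher (33%, against 33.7% of all genes) and 189 lower (36.2%, against 33%) in KO, with a median log2 fold change of -0.02. With library size only, these were 225 and 142, against 46.6% and 23.9% of all genes.

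**Figure D1:**
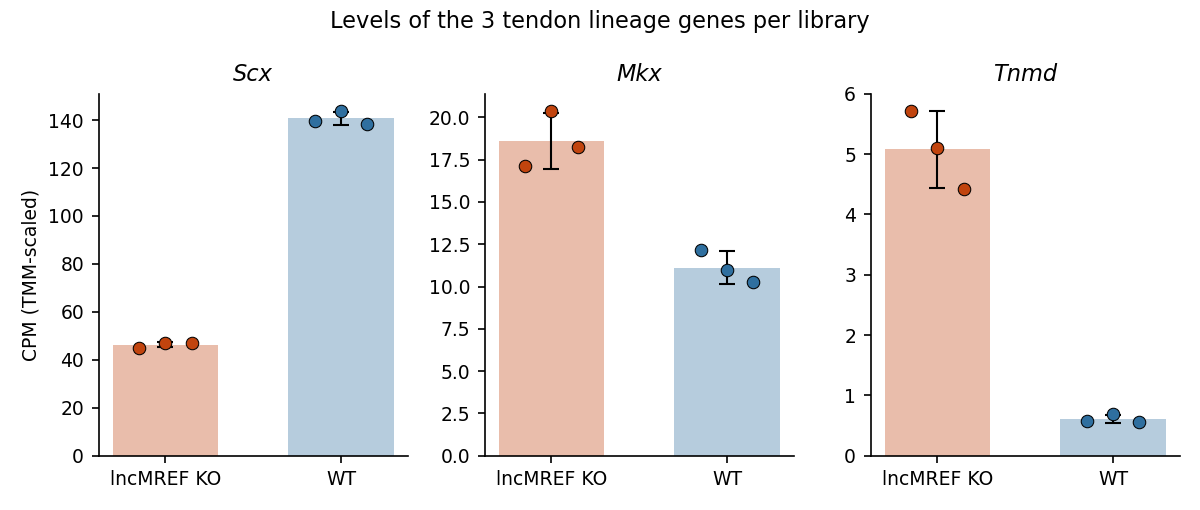
Level of each gene in CPM per library, with lncMREF KO left of WT; points are libraries, bars are means and error bars are SD (n = 3 each), and each panel has its own axis from 0. Scx stood at 46.3 CPM in KO against 141 in WT, Mkx at 18.6 against 11.1, and Tnmd at 5.08 against 0.608.

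All 3 genes passed the filter on low counts, and in none did the genotypes overlap. Groups without overlap were common: 69.4% of all tested genes had none, 35.3% with KO higher and 34.1% with KO lower. In bulk RNA, fewer cells of a type and less RNA per cell cannot be told apart. The relative spread within a genotype was smaller at higher levels, with a coefficient of variation of 2.36% in KO and 2.04% in WT for Scx, 8.93% in KO and 8.59% in WT for Mkx, and 12.6% in KO and 11.1% in WT for Tnmd.

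**Figure D2:**
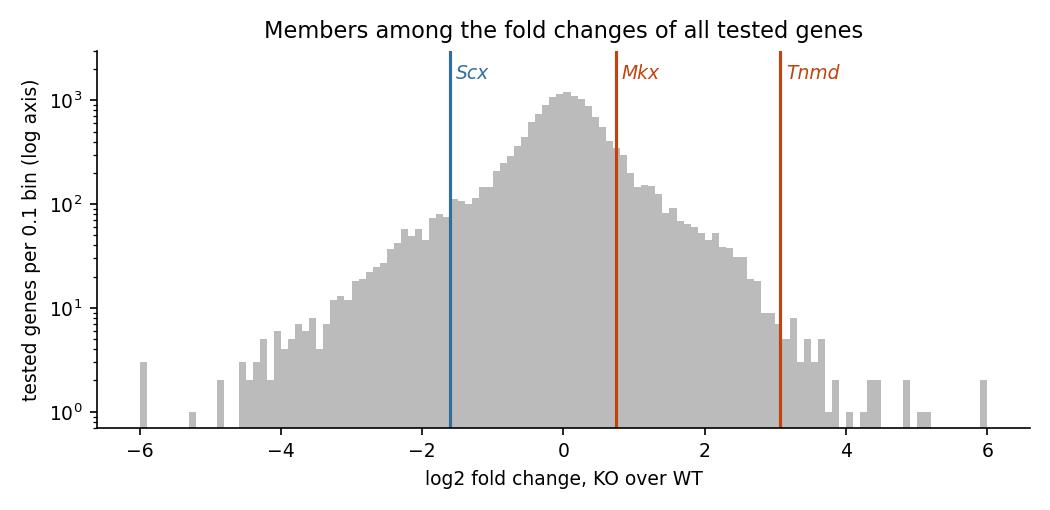
Number of tested genes in bins of 0.1 of log2 fold change, KO over WT, on a log axis, with values beyond 6 in either direction drawn in the last bins; vertical lines mark the 3 genes. Scx lies at -1.60 in the lower tail, Mkx at 0.75 in the upper shoulder and Tnmd at 3.07 in the far upper tail.

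Per exon length, the balance among the 3 genes differed between the genotypes. In RPKM, which divides CPM by the kilobases of annotated exon, Scx stood at 23.1 ± 0.544 in KO and 70.1 ± 1.43 in WT, Mkx at 4.54 ± 0.405 in KO and 2.72 ± 0.233 in WT, and Tnmd at 3.75 ± 0.473 in KO and 0.449 ± 0.0497 in WT (SD, n = 3 each). Scx was thus the highest in both genotypes. Mkx and Tnmd overlapped in KO, where Tnmd in replicate 1 (4.22 RPKM) was above Mkx in replicate 1 (4.18 RPKM). In WT they were apart, with Mkx at 2.51 to 2.97 RPKM and Tnmd at 0.414 to 0.506 RPKM. The ratio of Scx to Mkx in RPKM ran from 4.69 to 5.37 in KO libraries and from 23.5 to 27.5 in WT libraries. The ratio of Scx to Tnmd ran from 5.32 to 7.15 in KO libraries and from 142 to 167 in WT libraries. These ratios follow from the differences that chose the genes, and they depend on the exon lengths of GENCODE M21 (2007 bases for Scx, 4095 for Mkx and 1353 for Tnmd).

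Of the trio, Tnmd was matched in the promoter table, and its promoter is therefore the one shown. It was searched for the E-box, on which Scx acts, and for the core Smad site of TGF-beta signalling, AGAC or its complement GTCT. The 222 bases before the annotated start of Tnmd (RefSeq promoter table, GRCm38.p6, chrX:133850758-133850979, plus strand) are given 5′ to 3′, with AGAC and GTCT in capitals.
Tnmd: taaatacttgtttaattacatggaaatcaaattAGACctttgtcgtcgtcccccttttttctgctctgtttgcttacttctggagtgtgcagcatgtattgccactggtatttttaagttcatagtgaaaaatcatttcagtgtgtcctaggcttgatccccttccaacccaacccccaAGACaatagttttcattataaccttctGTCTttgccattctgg
The E-box CANNTG, which reads the same on both strands, did not occur in this window, whereas 62.4% of 32851 promoters in the table held it at least once in the same number of bases. The window held 3 matches to AGAC or GTCT, which begin 189, 43 and 16 bases before the start. Of all promoters, 79.5% held at least 1 such match and 23.9% held 3 or more. These are matches of letters in a short window and say nothing about binding there or elsewhere in the gene.

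The position of Scx matters for how its reads are counted. Scx lies whole inside intron 3 of Bop1, a gene of ribosome biogenesis that is transcribed from the other strand, and the intron is 10745 bases long. Scx and Bop1 share no exonic base in GENCODE M21. Of the 2 annotated Scx transcripts, the spliced form has 2 exons, and the other is a single exon that covers the intron between them, so unspliced reads of the whole span can be counted as Scx. The sources used here do not say whether reads were counted by strand. Without strand, intronic reads of Bop1 within that span would also be counted there.

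**Figure D3:**
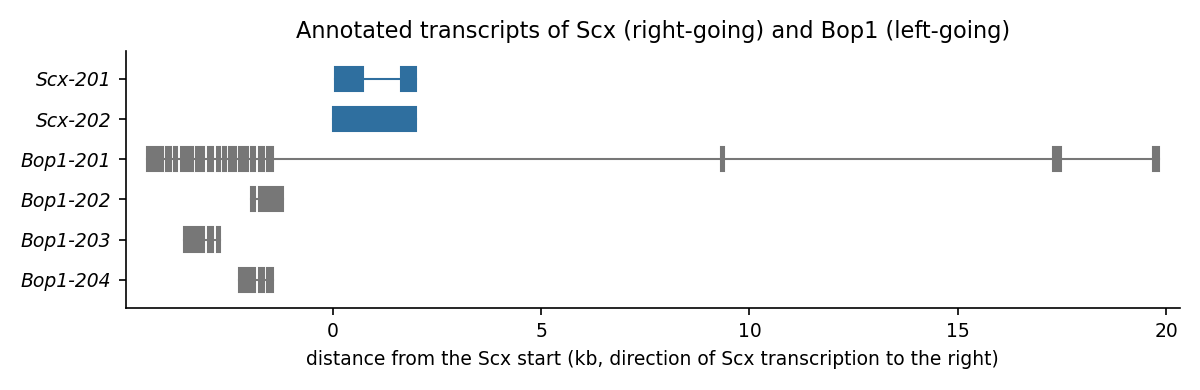
Annotated transcripts of Scx (blue) and Bop1 (grey) against the distance from the Scx start in kb; boxes are exons and lines are introns. Both Scx transcripts lie inside intron 3 of the longest Bop1 transcript, which has 16 exons.

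The tested genes next to or overlapping the trio had log2 fold changes between -0.56 and 0.32, and their difference from the trio was not tested. Bop1 fell, at 77.7, 87 and 84.2 CPM in KO replicates 1 to 3 and 123, 126 and 117 CPM in WT replicates 1 to 3, a log2 fold change of -0.56 (SE 0.05, edgeR adjusted p 5e-12). On either side of Scx, Mroh1 rose (0.32, SE 0.05) and the heat shock factor gene Hsf1 fell (-0.18, SE 0.06), with edgeR adjusted p-values of 1.54e-07 and 0.0057. In the authors' per-library count tables, a separate form of the counts described last, Bop1 was called higher (0.38, edgeR adjusted p 0.0362) and Mroh1 lower (-0.25, edgeR adjusted p 0.000938). Beside Mkx, 140089 bases away, the small GTPase gene Rab18 fell slightly (-0.22, SE 0.05, edgeR adjusted p 0.000154). The calls of Hsf1 and Rab18 were lost with library size only (-0.01 and -0.05, edgeR adjusted p 0.849 and 0.325).

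Mkx has a noncoding neighbour, AC148004.1, annotated as a lncRNA of a shared promoter, that begins 183 bases away and runs the other way. It had 9, 7 and 14 counts in KO replicates 1 to 3 and 1, 2 and 0 counts in WT replicates 1 to 3. Every KO library was above every WT library, but its counts were too low to pass the filter, so it was not tested. A further noncoding gene, AC148004.2, shares 201 exonic bases with Mkx, which is 4.91% of the exonic bases of Mkx, and was not analysed here. For Tnmd, the tetraspanin gene Tspan6, 25491 bases away, was not called at 66.4 ± 4.76 CPM in KO and 64.9 ± 5.37 CPM in WT (SD, n = 3 each), but was with library size only (0.20, edgeR adjusted p 0.00501). The protocadherin gene Pcdh19, 161993 bases away on the other side, fell slightly (-0.14, SE 0.05, edgeR adjusted p 0.0207). That call was lost without KO replicate 2 (-0.07, edgeR adjusted p 0.183) or WT replicate 2 (-0.12, 0.0693), and with library size only the value was 0.03 (0.574).

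**Figure D4:**
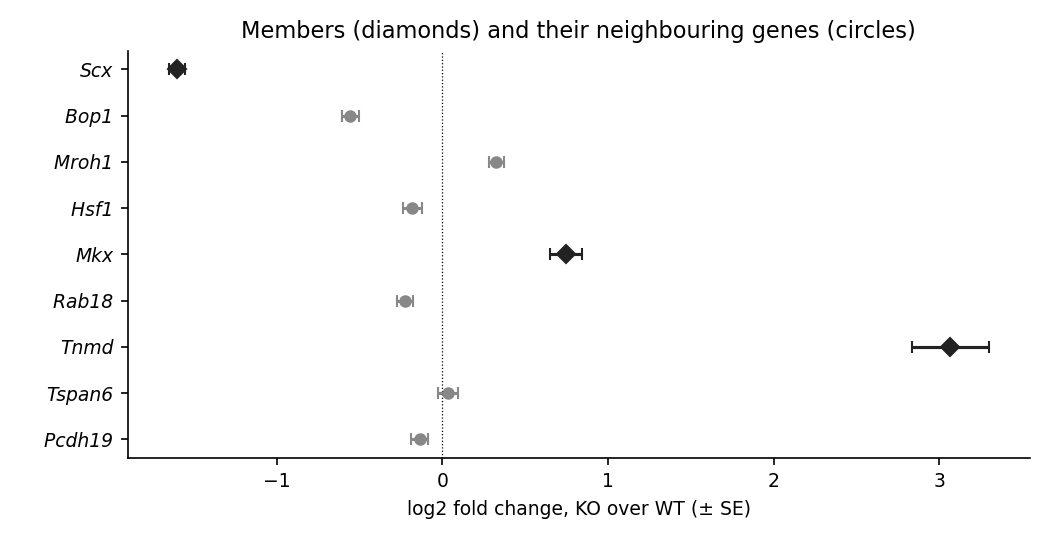
Log2 fold change, KO over WT, with its SE, for the 3 genes (diamonds) and the tested genes next to or overlapping each (circles, listed under it). The neighbours lie between -0.56 (Bop1) and 0.32 (Mroh1). Scx lies at -1.60, Mkx at 0.75 and Tnmd at 3.07, values that chose the 3 genes.

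The genes whose pattern over the 6 libraries was most like each of the trio were found by the root mean square distance between log2 CPM centred on each gene's mean. For Scx they were Synpo2 (distance 0.01), Afap1l1, Cacna2d1, Ablim3 and Irf7 (all 0.03). Synpo2, Afap1l1 and Ablim3 encode actin-associated proteins, Cacna2d1 a calcium channel subunit and Irf7 an interferon regulatory factor. For Mkx they were 2610037D02Rik, Miip, Chchd5, Blvra and Qtrt1, at distances from 0.03 to 0.05. For Tnmd they were Pbk, CT030636.2, Atp10b, Slc27a6 and Mcm10, at distances from 0.12 to 0.16. Pbk is a mitotic kinase and Mcm10 a DNA replication factor. Many genes came near Scx and Mkx on this measure, 434 and 1536 of them within a distance of 0.2, against 11 for Tnmd. The genes listed had log2 fold changes of -1.64 to -1.56 for Scx, 0.72 to 0.80 for Mkx and 2.77 to 3.50 for Tnmd. The distance thus largely restates the difference between KO and WT that chose the trio, and shared regulation was not tested.

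The tendon matrix genes were more often higher than lower in KO. Of 42 genes in the list, 37 were tested, and edgeR called 23 higher (62.2%, against 33.7% of all genes) and 9 lower (24.3%, against 33%), with a median log2 fold change of 0.22 beside 0.02 over all genes. By over 2-fold, 8 rose and 1 fell, the last being Cilp2 (-1.13), named after its value was seen, and over all genes the shares past that fold were 8.56% and 9.38%. The 5 not called, of which all but Bgn were named after their values were seen, were Abi3bp, Pcolce, Lum, Bgn and Ecm2. Thbs4, a thrombospondin of tendon and muscle matrix, stood at 208, 203 and 216 CPM in KO replicates 1 to 3 and 10.8, 9.53 and 11.1 CPM in WT replicates 1 to 3. It rose by 4.31 on the log2 scale (SE 0.06, edgeR adjusted p 8.94e-35). Col14a1, a fibril-associated collagen of tendon, stood at 78.7, 80.6 and 81.9 CPM in KO replicates 1 to 3 and 6.45, 5.42 and 8.25 CPM in WT replicates 1 to 3. It rose by 3.56 (SE 0.09, edgeR adjusted p 6.82e-23), and its WT level, like that of Thbs4, was higher than that of Tnmd. Col6a2, a chain of the microfibrillar collagen VI, rose by 1.99 (SE 0.05).

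The main tendon collagen genes differed little. Col1a1 stood at 7544 ± 279 CPM in KO and 6685 ± 81.2 CPM in WT, and Col1a2 at 5723 ± 153 CPM in KO and 5040 ± 31.1 CPM in WT (SD, n = 3 each). Both passed the test with log2 fold changes of 0.17 and 0.18 (SE 0.04 each; edgeR adjusted p 0.000164 and 7.13e-05). Fmod, a small proteoglycan that binds tendon fibrils, was low at 3.6 ± 0.631 CPM in KO and 2.41 ± 0.18 CPM in WT, and its rise of 0.57 (SE 0.19, edgeR adjusted p 0.0082) was lost without KO replicate 1 (0.45, adjusted p 0.0679). The proteoglycans Dcn (-0.59) and Ogn (-0.90), the matrix glycoprotein Tnc (-0.59) and the collagen crosslinking enzyme Lox (-0.59) fell, with SE from 0.04 to 0.05. Bgn was not called (0.02, SE 0.04), at 3864 ± 40.8 CPM in KO and 3813 ± 117 CPM in WT, but was with library size only (0.19, edgeR adjusted p 5.18e-05). Comp, a matrix protein abundant in tendon, stood below 1 CPM in all libraries, at 0.394 ± 0.0299 in KO and 0.478 ± 0.18 in WT, and was not tested, as were Chad, Angptl7 and Clec3b.

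**Figure D5:**
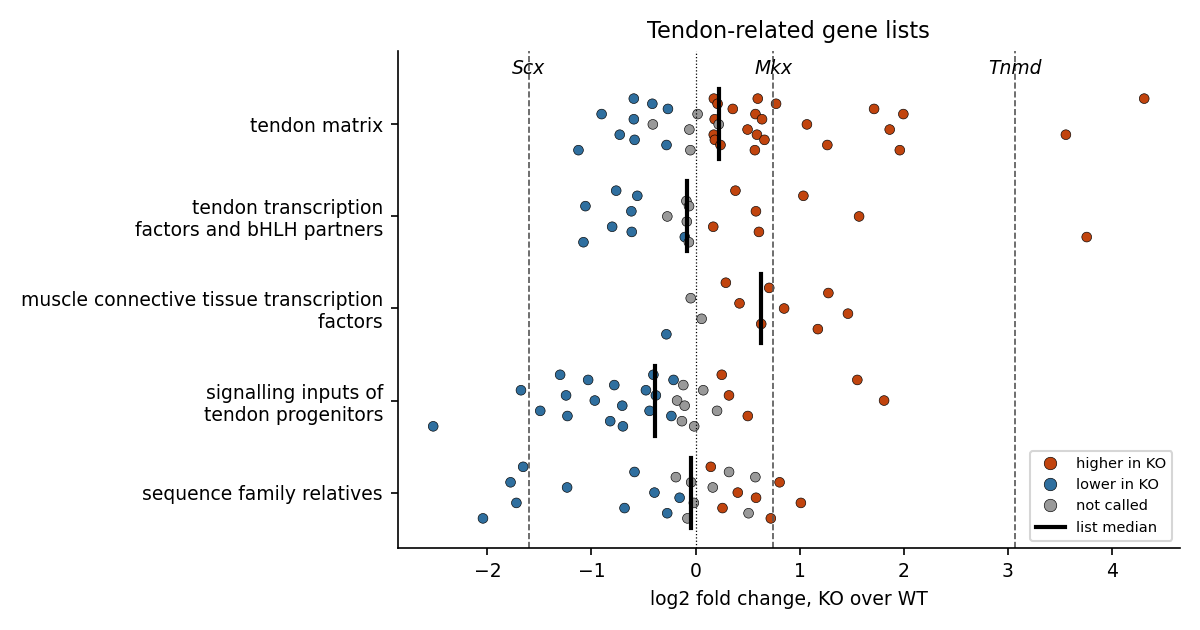
Log2 fold change, KO over WT, of each tested gene in 5 tendon-related lists (points, coloured by call; black bars are list medians; heights within a row only separate points), with dashed lines at the values of the 3 genes. The connective tissue factor list has the highest median, 0.63, and the signalling list the lowest, -0.39.

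The signals that act upstream of Scx in tendon progenitors were mostly lower in KO, as Scx was. Of 33 genes of the TGF-beta, BMP and FGF pathways, 30 were tested, 18 fell (60%, against 33% of all genes), 5 rose (16.7%, against 33.7%) and 7 were not called, with a median log2 fold change of -0.39. Past 2-fold were 7 of those that fell and 2 of those that rose, and over all genes the shares past that fold were 9.38% lower and 8.56% higher. Tgfb3, a TGF-beta ligand, stood at 168, 171 and 162 CPM in KO replicates 1 to 3 and 342, 355 and 329 CPM in WT replicates 1 to 3. It fell by 1.03 on the log2 scale (SE 0.04, edgeR adjusted p 2.48e-21), and 12.4% of its exonic bases are shared with another gene. Tgfb2 also fell, at 32.3 ± 0.251 CPM in KO and 52.5 ± 2.69 CPM in WT (-0.70, SE 0.06, edgeR adjusted p 2.5e-12). Tgfb1 (-0.23) and the TGF-beta signal transducer Smad3 (-0.38) fell by less, and the Tgfb1 call was lost with library size only (-0.06, edgeR adjusted p 0.192).

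In the FGF branch, the ligand gene Fgf2 stood at 29.6, 28.4 and 31.6 CPM in KO replicates 1 to 3 and 92.6, 97.8 and 95.5 CPM in WT replicates 1 to 3. It fell by 1.68 (SE 0.06, edgeR adjusted p 5.34e-24), close in size to Scx, and 13.2% of its exonic bases are shared with another gene. Dusp6, a phosphatase induced by FGF signalling, fell by 0.78 (SE 0.06), and the receptor gene Fgfr1 was not called (-0.01, SE 0.04), but was called higher with library size only (0.16, edgeR adjusted p 0.00117). The 5 that rose were the receptor genes Tgfbr2 (0.25) and Fgfr2 (1.55), the FGF feedback inhibitor Spry2 (0.50), Smad2 (0.32) and the ligand gene Gdf7 (1.81), the last pair named after their values were seen. Gdf7 was low, at 1.18 ± 0.731 CPM in KO and 0.322 ± 0.163 CPM in WT (SD, n = 3 each). Spry1 and Spry4, of the same family as Spry2 and named after their values were seen, fell by 0.44 and 0.82 (SE 0.05 and 0.09). Of the exonic bases of Spry1, 24.4% are shared with another gene.

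Transcription factors of tendon and partners of Scx moved in both directions. Of 20 genes, all tested, 7 rose (35%) and 8 fell (40%), near the share over all genes, with a median log2 fold change of -0.09. Egr2, a zinc finger factor that promotes tendon collagen genes, fell by 0.76 (SE 0.08), and Sox9, which marks progenitors at tendon attachments, fell by 0.56 (SE 0.09). Egr1, a relative of Egr2, was called lower by a small amount (-0.10, SE 0.05, edgeR adjusted p 0.0427). The Egr1 call was lost without KO replicate 3 (adjusted p 0.174), WT replicate 2 (0.0613) or WT replicate 3 (0.109) and with the replicate block (0.058), and with library size only the value was 0.07 (0.184). Nfatc4, a factor that acts with Scx on collagen genes in mouse tendon cells, rose by 0.61 (SE 0.06).

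The E proteins, with which Scx pairs, were present in both genotypes. Tcf3 stood at 105 ± 4.56 CPM in KO and 70.5 ± 2.14 CPM in WT (SD, n = 3 each) and rose by 0.58 (SE 0.05, edgeR adjusted p 1.72e-12). Tcf12 rose by 0.17 (SE 0.05) and Tcf4 was not called (-0.06, SE 0.04), at 151 ± 4.54 CPM in KO and 158 ± 5.94 CPM in WT, but was called higher with library size only (0.11, edgeR adjusted p 0.0315). Of the Id proteins, which sequester E proteins, Id1 and Id2 fell by 0.62 and 0.61 (SE 0.08 and 0.12), and Id3 was not called (-0.09, SE 0.07), although it was without KO replicate 3 (-0.17, edgeR adjusted p 0.0301), and with library size only its value was 0.082. Id4, named after its value was seen, went the other way and rose by 1.035 (SE 0.13, edgeR adjusted p 1.34e-08). In the per-library tables Tcf3 was called lower (-0.21, edgeR adjusted p 0.0219) and Id3 higher (0.20, edgeR adjusted p 0.00253). The others not called were Six2 (-0.27, SE 0.17) and, named after their values were seen, Klf2 and Gtf2ird1.

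Genes listed as transcription factors of muscle connective tissue, the fibroblast lineage around fibres and tendons, were mostly higher in KO. All 11 were tested, 8 rose (72.7%, against 33.7% of all genes), Prrx1 fell (-0.28, SE 0.04) and 2 were not called, with a median log2 fold change of 0.63. The 2 not called, named after their values were seen, were Meox2 and Tbx4. Hic1, a marker of mesenchymal progenitors in muscle, stood at 164, 144 and 162 CPM in KO replicates 1 to 3 and 87.6, 87.7 and 85.2 CPM in WT replicates 1 to 3, and rose by 0.85 (SE 0.05, edgeR adjusted p 2.93e-17). Meox1, a homeobox factor of somites, rose by 1.46 (SE 0.12, edgeR adjusted p 2.11e-13), at 13.6 ± 1.11 CPM in KO and 4.9 ± 0.318 CPM in WT (SD, n = 3 each). In the per-library tables Meox1 was opposite in sign and not called (-0.23, edgeR adjusted p 0.179). Only 4 genes of this list could be tested there, and 2 were called higher, against 27.3% of all genes tested there.

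Relatives by sequence moved in both directions. Of 38 genes in the bHLH, TALE homeobox and BRICHOS families, 25 were tested, 7 rose (28%, against 33.7% of all genes), 10 fell (40%, against 33%) and 8 were not called, with a median log2 fold change of -0.04. With library size only, 13 of the 25 were called higher and 8 lower, where the shares over all genes were 46.6% and 23.9%. Among bHLH genes near Scx, Tcf15 (paraxis) was barely detected, at 0.411 ± 0.132 CPM in KO and 0.332 ± 0.213 CPM in WT, and was not called (0.32, SE 0.50), whereas the mesenchymal factor Twist1 rose (0.58, SE 0.09). Twist2, a relative of Twist1 named after its value was seen, fell by 0.68 (SE 0.16), and 46.5% of its exonic bases are shared with another gene. Among TALE genes, to which Mkx belongs, the Iroquois factors Irx3 and Irx5 fell by 1.23 and 1.66 (SE 0.10 and 0.17) and Meis3 rose by 0.72 (SE 0.08). Cnmd, the closest relative of Tnmd, was not analysed here.

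Markers of other cells that make these genes or accompany tendon were counted against the shares over all genes, 33.7% higher and 33% lower. Of 10 tested tendon sheath and progenitor markers, 3 rose (30%) and 5 fell (50%). With library size only, 4 rose (40%, against 46.6% of all genes) and 4 fell (40%, against 23.9%). The summed level of these markers was 805 to 821 CPM in KO and 756 to 783 CPM in WT. Of 10 tested fibro-adipogenic markers, 5 rose (50%) and 4 fell (40%), with sums of 1120 to 1203 CPM in KO and 953 to 989 CPM in WT. Adipocytes can also make Tnmd: their defining markers Adipoq and Plin1 had 0 to 7 counts per library and were not tested, and the list summed to 6.32 to 7.57 CPM in KO and 16.9 to 23.9 CPM in WT, of which most was Fabp4. Of 8 cartilage markers 4 were tested, and 1 rose (25%; Col2a1, by 2.73) and 1 fell (25%; Col10a1, by 1.02), both named after their values were seen, and the list summed to 22.7 to 23.2 CPM in KO and 18.2 to 22 CPM in WT.

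Myocyte markers were lower throughout, with 8 of 8 fallen (100%, against 33% of all genes) and sums of 4015 to 4340 CPM in KO and 17970 to 18640 CPM in WT. Of 9 genes of the myotendinous junction, 7 were tested, 2 rose (28.6%, against 33.7% of all genes) and 4 fell (57.1%, against 33%), with sums of 3684 to 3701 CPM in KO and 5069 to 5257 CPM in WT, and its defining collagen Col22a1 was near 0, at 0.0459 ± 0.00647 CPM in KO and 0.134 ± 0.118 CPM in WT (SD, n = 3 each). Schwann cell markers (7 of 11 tested rose, 63.6%, and 2 fell, 18.2%) summed to 1071 to 1091 CPM in KO and 580 to 587 CPM in WT. Macrophage markers (9 of 11 rose, 81.8%, and 0 fell) summed to 350 to 363 CPM in KO and 110 to 121 CPM in WT. Endothelial markers (10 of 10 fell, 100%) summed to 80.9 to 86 CPM in KO and 329 to 334 CPM in WT. The part of these markers, of the mitochondrial share and of the sex-linked transcripts in the levels of Scx, Mkx, Tnmd and the lists was not tested.

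The authors also deposited a count table per library, which gave another picture for the trio. These tables held far fewer counts than the matrix, 5501088 to 7182438 in KO libraries and 6702655 to 9136354 in WT libraries. There Mkx had 391, 542 and 367 counts in KO replicates 1 to 3 and 282, 222 and 280 in WT replicates 1 to 3, between 1.02 and 1.07 times its matrix counts. Scx had 842, 1160 and 883 counts in KO and 1935, 1797 and 1915 in WT, which were 0.847 to 0.991 times the matrix counts in KO and 0.517 to 0.657 times in WT. Tnmd was listed at 0 in all 6 tables. The direction of Scx and Mkx was the same in both forms, with log2 fold changes in the per-library tables of -0.91 (SE 0.08) for Scx and 0.80 (SE 0.10) for Mkx. A match as close as that of Mkx was uncommon. When 9941 genes averaging 200 or more matrix counts were compared, the 2 forms lay within 0.8 to 1.25 times of each other for 5.84%. Across the per-library tables, edgeR called 55.1% of 9871 tested genes, 27.3% higher and 27.8% lower in KO. Of 18 tendon matrix genes tested there, 12 were called higher and 2 lower, and of 9 signalling genes 3 were called higher and 3 lower. The calls of Col14a1 (0.10), Col6a2 (0.24), Tcf12 (0.08) and Pax7 (0.07) were lost there, with edgeR adjusted p-values of 0.338 to 0.431. Some genes named above, among them Thbs4, Tgfb3, Fgf2 and Hic1, had no fold change there. The genes with a value there numbered 32, selected by the naming rule or added as sex-linked or muscle identity genes. Of these 32, 13 were opposite in sign. Of these 13, 9 passed edgeR's test there, and 8 passed it in both forms with opposite directions. The 8 were Tnc (2.49 in the per-library tables, edgeR adjusted p 0.000445), Ablim3 (1.25, 0.00506), Bop1, Mroh1, Tcf3 (-0.21, 0.0219), Miip (-0.19, 0.0192), Blvra (-0.70, 2.82e-06) and CT030636.2 (-0.88, 0.00214), and Id3 was the other. Tgfb1 (0.33), Meox1 (-0.23), Hsf1 (0.39) and Xist (-0.12) did not pass there.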

How the data were processed

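The values deposited by the authors are raw read counts per Ensembl gene, without normalisation, held in a series matrix and in a table per library. The tools listed in the submitters' processing notes are featureCounts 2.0.1 and HISAT2 2.2.1, with build mm10; the sources used here give neither the annotation release nor whether strand was used. The matrix was used throughout, and the per-library tables as an alternative. Symbols, positions and exon lengths come from GENCODE M21 (mm10), which matched 21632 of 21666 matrix genes; the RefSeq promoter table held 1 of the 3 members. Genes were kept by filterByExpr (minimum count 10, minimum total 15), scaled by TMM and tested with edgeR 4.0.16 in R 4.3.3 (quasi-likelihood F-test, genotype as the only term, Benjamini-Hochberg over 15518 genes, call at an adjusted p under 0.05). CPM are counts over the effective (TMM-scaled) library size, put on a common scale, and RPKM are CPM per kilobase of exon. Fold changes are KO over WT, and SE is the log2 fold change over the root of its F statistic.

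The members and lists were chosen with earlier results of these data known. Genes were named by a fixed list, by the 2 smallest p-values per direction in each gene list, by the 5 smallest pattern distances (log2 CPM, prior count 2) and by position. Sex-linked genes and the muscle identity genes Pax7 and Myod1 were added to these. No pair of replicates agreed within sampling noise (mean chi-square per gene 3.18 to 5.11). Alternatives were DESeq2 1.42.0, median-of-ratios factors, library size only, no filter, a replicate block and leaving out each library. Some genes that the naming rule selects are not reported here.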

Additional observations from a re-analysis of the deposited data

How the results depend on the processing

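The direction of Scx, Mkx and Tnmd was the same under every alternative that gave a value; no value could be had for Tnmd from the per-library tables. Leaving out each library in turn gave log2 fold changes of -1.63 to -1.59 for Scx, 0.67 to 0.80 for Mkx and 2.98 to 3.15 for Tnmd. With library size only they were -1.43, 0.92 and 3.24; this scaling moved the median of all genes to 0.19 from 0.02 and the share of calls that were higher in KO to 66.1% from 50.5%. Under it 26 of 37 tested tendon matrix genes were called higher and 7 lower. The signalling list had 7 and 16 of 30, the tendon factors and partners 8 and 7 of 20, and the relatives 13 and 8 of 25. Over all genes, the shares with library size only were 46.6% higher and 23.9% lower. The marker lists and chromosome X were recounted under it and under median-of-ratios factors, a check chosen after seeing the data. The per-library tables gave -0.91 for Scx. Of the tendon matrix genes tested there, 14 of 18 were called (12 higher, 2 lower), against 55.1% of all genes tested there. The calls in the other lists were 6 of 9 tendon factors and partners, 2 of 4 connective tissue factors, 6 of 9 signalling genes and 4 of 7 relatives. Fewer genes of each list could be tested there than in the matrix. Of the genes selected for naming or added to them, 13 of 32 were opposite in sign in those tables: Tnc (2.49), Tcf3 (-0.21), Id3 (0.20), Tgfb1 (0.33), Bop1 (0.38), Meox1 (-0.23), Ablim3 (1.25), Miip (-0.19), Blvra (-0.70), CT030636.2 (-0.88), Mroh1 (-0.25), Hsf1 (0.39) and Xist (-0.12). With library size only, 5 were: Egr1 (0.067), Tcf4 (0.11), Id3 (0.082), Fgfr1 (0.16) and Pcdh19 (0.033). Leaving out a library turned the sign of 3 genes that were not called, Tspan6 (-0.040 to 0.076 over the 6 fits), Tcf15 (-0.13 to 0.76) and Bgn (-0.019 to 0.029). The cause of these changes was not tested. Same-numbered KO and WT libraries had correlations of deviations from -0.025 to -0.000914, and differently numbered ones from -0.0104 to 0.0201. With 3 libraries per genotype these values cannot settle whether the replicate numbers pair the samples. With the replicate block, 10209 genes were called in place of 10353, and Scx, Mkx and Tnmd had -1.60, 0.74 and 3.05. DESeq2 called 9625 genes, and the counts of calls per list stayed within 1.5 times under every alternative on the matrix. Among the 3 genes Tnmd had the fewest counts, 13 to 15 in its WT libraries.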
